A study of Sus scrofa with 12 samples.

Results

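The sarcomeric myosin heavy chain genes were followed through H3K27ac chromatin loops and chromatin-associated RNAs of pig skeletal muscle. The 8 members were MYH1, MYH2, MYH3, MYH4, MYH8, MYH13, MYH6 and MYH7. They were chosen by name and looked up among 30371 genes with a position in the RefSeq table of Sscrofa11.1. That table placed 4 of them, MYH4, MYH1 and MYH2 side by side on chromosome 12 and MYH7 on chromosome 7. Loops belonged to a gene when a 5-kb anchor lay in it or within 1 kb of it, and RNA signal belonged to a gene when its 1-kb DNA bin lay in it or within 5 kb of it. This gave 60 different loops at the 4 placed genes, 25 of 57028 loops in LW replicate 1, 22 of 43282 in LW replicate 2, 24 of 45061 in MS replicate 1 and 17 of 33353 in MS replicate 2. The tissue was longissimus muscle of male piglets aged 2 weeks, from LW (Large White, labelled as a commercial lean breed) and MS (Meishan, labelled as a local Chinese breed), with no treatment named. Each assay, BL-HiChIP and GRID-seq, had 2 libraries per breed, and whether the replicates of a breed came from different animals is not clear from the study's methods, so the p-values measure the spread between these libraries, which may be technical.

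Myosin heavy chains are the motor proteins of the thick filament, and the isoform a fibre uses sets how fast it contracts. MYH7 encodes the slow isoform of type I fibres and of the heart ventricle. MYH2, MYH1 and MYH4 encode the fast isoforms of type IIA, IIX and IIB fibres, from the more oxidative to the more glycolytic. MYH3 encodes the embryonic and MYH8 the perinatal isoform, MYH13 the isoform of eye muscles, and MYH6 the second cardiac isoform. In mammals the skeletal genes other than MYH7 stand in a conserved tandem cluster, and MYH6 neighbours MYH7. H3K27ac marks active promoters and enhancers, and a loop here has at least 1 anchor at a peak of this mark. In GRID-seq, RNA is ligated through a linker to the DNA near which it lies, which records nascent and other nuclear RNA along the genome.

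MYH4 covers positions 55190545 to 55216294 of chromosome 12, MYH1 covers 55225581 to 55251495 and MYH2 covers 55252974 to 55278820. The genes were 25750, 25915 and 25847 bp long. A gap of 9.29 kb separated MYH4 from MYH1 and a gap of 1.48 kb separated MYH1 from MYH2. The RNA listed over them was on the minus strand, so MYH2 came first in the direction of transcription and MYH4 last. Beyond the MYH2 start, 72.3 kb without a placed member ended at LOC396711, a protein-coding gene without a symbol (55351152 to 55373236). MYH7 covers 75650841 to 75672908 of chromosome 7 on the plus strand and has LOC100736765, also protein-coding and without a symbol, 4.76 kb downstream. MYH3, MYH8, MYH13 and MYH6 had Ensembl identifiers (ENSSSCG00000018007, ENSSSCG00000018005, ENSSSCG00000024416 and ENSSSCG00000002029) that occurred in 0 of the 4 RNA lists, and no position was used for them here. Which of the neighbours without a symbol is which of these genes was not determined, and they keep their table names below.

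A gene's RNA could also be listed under a wider interval. MYH7 was the only member listed as an RNA under its own name, in all 4 libraries, over 75650445 to 75709232 of chromosome 7. That interval also holds LOC100736765, so its reads are not those of MYH7 alone. No listed RNA lay inside a fast gene. Instead, the identifier ENSSSCG00000029441 was listed over 55190429 to 55278539 of chromosome 12, from the end of MYH4 to the start of MYH2, and is called the fast-gene RNA below. Its reads cannot be divided among the 3 fast genes, whose sequences are also close copies of one another. The authors discarded read pairs that mapped ambiguously in both assays, so reads from stretches that such genes share can be missing, and how many were lost at these genes is not known here. The lists held 571 and 681 RNAs with 8181721 and 9943666 reads in LW, and 519 and 649 RNAs with 7172517 and 9381797 reads in MS. The RNA with fewest reads in a list had 432 to 455 reads, so an RNA that is not listed is not shown to be absent.

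The fast genes were joined to a shared segment upstream of MYH2. The segment of chromosome 12 from 55300001 to 55350000, 50 kb long and 21.2 kb before the MYH2 start, held the far anchors of the strongest loops at any member in each library. Loop strength is given as −log10 of the FDR that the loop caller assigned. The MYH1 start lay in the bin 55250001 to 55255000, which also holds the end of MYH2, and its loop to the bin starting at 55310001, 60 kb away, was called in all 4 libraries. That loop had a strength of 24.5 and 66.2 in LW against 31.7 and 46.1 in MS, so the breeds overlapped. The strongest loop of the MYH1 start reached the bin at 55325001 with 98.5 in LW replicate 2 and with 68.1 and 82.0 in the MS libraries. In LW replicate 1 it reached the next bin, at 55330001, with 51.2. Only 37 to 188 loops of a whole library were stronger than this loop, at most 0.384% of its loops.

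MYH4, the last gene in the direction of transcription, reached the same segment over longer distances, and did so more strongly in LW than in MS. The loop from its start bin, 55215001 to 55220000, to the bin at 55325001 or 55330001 had a strength of 30.6 and 84.8 in LW. In MS replicate 2 the loop to the bin at 55325001 had 14.5, and in MS replicate 1 the strongest loop of the MYH4 start reached the bin at 55335001 with 15.1. The loop of the MYH4 start to the bin at 55310001, 95 kb away, had 9.74 and 56.8 in LW against 7.81 in MS replicate 2. In MS replicate 1 that bin was reached from the neighbouring bin of MYH4 with 3.51. At both far bins the values of LW replicate 2 stood well above the other libraries. The MYH2 start, although closest to the segment, had weaker loops with it, the strongest from its start bin or the next one at 7.68 and 4.23 in LW against 13.9 and 17.5 in MS.

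Because 1 bin more or less split the same contact in different libraries, the loops between each start bin or its neighbour on either side and the segment were summed within a library. The segment and this sum were chosen after the loops were seen, so the values are a description with no test. For MYH4 the sum was 49.8 and 157 in LW against 22.5 and 27.1 in MS, from 3 loops in each of the 4 libraries. For MYH1 it was 80.6 and 186 in LW against 120 and 152 in MS, again from 3 loops in each library, and the breeds overlapped. For MYH2 it was 7.68 and 10.1 in LW against 26.2 and 19.9 in MS, with both MS values above both LW values. Of the sum at MYH4 and MYH1 together, MYH4 held 38.2% and 45.7% in LW against 15.8% and 15.2% in MS. The breed means of this share were 41.9% ± 5.3 (SD, n = 2) and 15.5% ± 0.456 (SD, n = 2). The share compares genes inside a library, so library depth enters it less than the sums. It was higher in LW among the libraries numbered 1 and among those numbered 2. Counted without strength, both genes had the same number of loops with the segment in every library, so the breeds differed in the FDR of the loops and not in their number. Of the strength of all loops that left the segment, 70.1% and 85.2% in LW against 89.2% and 81.1% in MS went to the 3 fast genes, and 0 loops in any library left it in the direction of LOC396711.

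**Figure D1:**
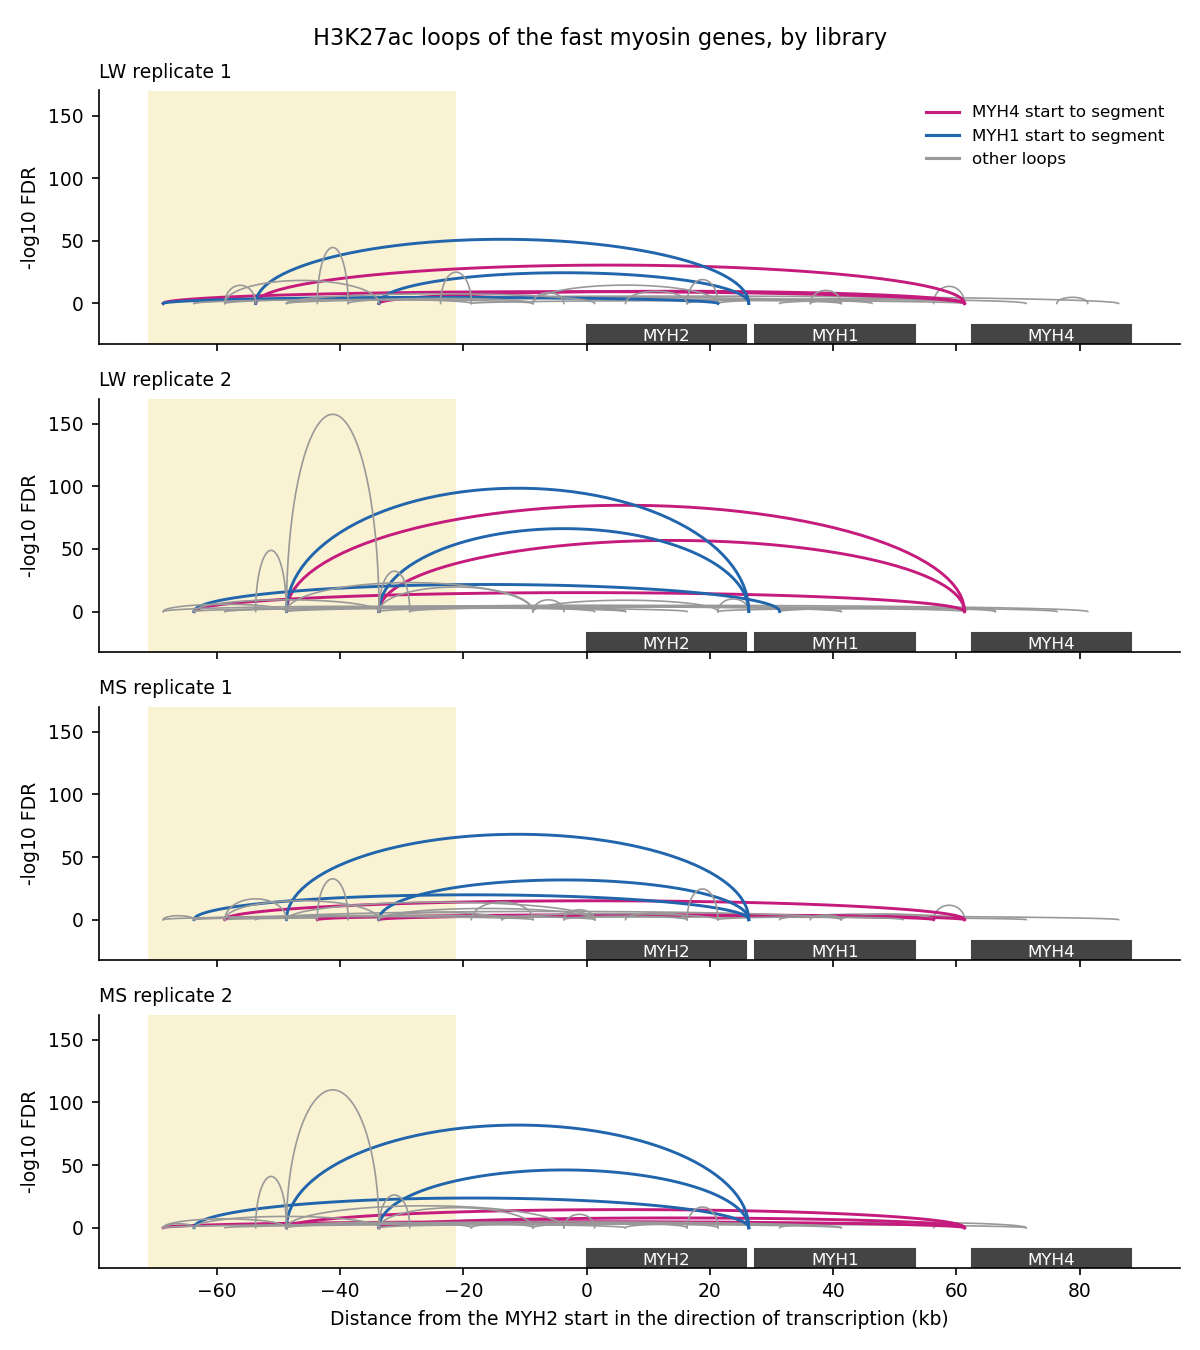
Each arc is a loop of the named library, its feet are the centres of its 5-kb anchors as distance (kb) from the MYH2 start in the direction of transcription, and its height is −log10 FDR; grey bars are genes and the shaded band is the segment of 50 kb before MYH2. The arcs from the MYH1 start to the segment are high in all 4 libraries, while the arcs from the MYH4 start reach 30.6 and 84.8 in LW against 15.1 and 14.5 in MS.

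Inside the segment, the bins at 55310001 and 55325001 were themselves joined, with a strength of 157 in LW replicate 2 and 110 in MS replicate 2. Both replicate 1 libraries instead had their strongest inner loop between 55315001 and 55325000, with 44.7 in LW against 32.6 in MS. The inner loops therefore split by replicate number and not by breed. Loops between the genes themselves were few and weak. With an anchor inside each gene, MYH4 and MYH1 were joined by 1 or 2 loops in every library, with 4.43 as the highest strength. MYH1 and MYH2 were joined by 1 loop in 3 libraries, the strongest with 10.1 in LW replicate 2, and by 0 in MS replicate 2. MYH4 and MYH2 were joined by 1 loop in each LW library, with 3.71 and 2.20, and by 0 in the MS libraries. Few loops had exactly the same bins in different libraries. Of the 41 loops at members in LW, 34.1% had the same bins in MS, and 75.6% had a match within 1 bin at both anchors. Of the 33 in MS, 42.4% had the same bins in LW, and 90.9% a match within 1 bin. The share of all loops with the same bins in both breeds was not counted here. Between replicates of a breed, 26.6% of all loops of LW replicate 1 and 25.8% of MS replicate 1 had the same bins. Among loops called in at least 3 libraries, the only far anchors that met a gene were those of MYH4 and MYH1 with each other, 5 kb apart, where the bin between the genes lies within 1 kb of MYH1, with 13.6 in LW replicate 1, while the MS libraries had 11.5 and 2.45.

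The loop score of a gene is the sum of −log10 FDR over its loops, and it was compared between breeds with limma after quantile normalization, on the log2(score + 1) scale. MYH4 had scores of 92.2 and 173 in LW against 40.1 and 36.8 in MS, with no overlap. Its normalized score was 1.33 ± 0.68 (SE) higher in LW on the log2 scale, which did not pass the test (limma, adjusted p = 0.893 over 16623 genes). In simulated data this fit called 0 of 200 changed genes at a log2 size of 3, so a difference of this size could hardly pass. The libraries did not overlap, with LW higher, at 25.1% of all genes, so the non-overlap at 1 of 4 placed members is no result about them. MYH1 had 119 and 208 in LW against 156 and 166 in MS, and MYH2 had 139 and 199 against 193 and 188. Both breeds overlapped at these genes, with differences of −0.38 ± 0.67 and −0.53 ± 0.65 (log2, LW minus MS, SE). The shared anchor of the MYH1 start and the MYH2 end enters the scores of both genes. MYH7 had 16.0 and 19.5 in LW against 11.4 and 24.2 in MS, with a difference of −0.32 ± 0.76 (SE). Across all genes, 0% of 16623 passed at an adjusted p under 0.05 with limma, 1041 had an unadjusted p under 0.05 and DESeq2 on the rounded score called 1. By the study's thresholds, a log2 difference above 1.5 with p under 0.05, 3.65% of genes were higher in LW, and none of the 4 members was among them.

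On the bins of the genes themselves, signal of the fast-gene RNA over MYH4 and, by a smaller margin, MYH2 was lower in MS without overlap. That over MYH1 overlapped. Summed over all RNAs within 5 kb, MYH2 overlapped too, and 19% of all genes had LW above MS without overlap. The signal is the authors' background-corrected value of an RNA on a 1-kb bin, and it varies smoothly from bin to bin, so neighbouring bins are not independent. The fast-gene RNA had 67876 and 74950 reads in LW against 42877 and 50510 in MS, which placed it 17th in both LW lists and 20th and 21st in the MS lists. Summed over the bins of MYH4, its signal was 20798 and 17586 in LW against 5940 and 5093 in MS. Over MYH1 it was 19055 and 16293 in LW against 20295 and 16288 in MS, with overlap of the breeds. Over MYH2 it was 6367 and 5351 in LW against 5114 and 3990 in MS, with both LW values above both MS values. MYH4 thus held 36.1% and 33.6% of the whole signal of this RNA in LW against 15.3% and 15.5% in MS, and MYH1 held 33.1% and 31.2% in LW against 52.4% and 49.7% in MS. The share of MYH2 was at most 13.2% in any library.

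The signal on MYH4 per signal on MYH1 compares values under the same listed RNA in the same library, so a factor common to a library cancels. That listing spans several genes and may hold different transcripts, and how the signal was scaled was not determined here. It was 1.09 in LW replicate 1 and 1.08 in LW replicate 2, against 0.293 and 0.313 in MS, with breed means of 1.09 ± 0.00857 and 0.303 ± 0.0141 (SD, n = 2 each). LW was 3.59 times MS, and the gap was many times the spread of the replicates. An exact permutation test of 2 libraries against 2 cannot go below p = 0.333 (two-sided), which is the value it gave. The ratio was formed after the profile was seen, so it is a description. The signal on MYH2 per signal on MYH1 was 0.334 and 0.328 in LW against 0.252 and 0.245 in MS. The highest bin of MYH4 was the same in all 4 libraries, 19.8 kb past its start, with 1540 and 1293 in LW against 428 and 376 in MS. In MYH1 the highest bin lay at most 22.0 kb past the start, with 1274 and 1119 in LW against 1245 and 1046 in MS. In MYH2 it lay 21.3 to 23.3 kb past the start, with 340 and 300 in LW against 254 and 208 in MS. The RNA was therefore densest toward the end of each gene in both breeds.

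**Figure D2:**
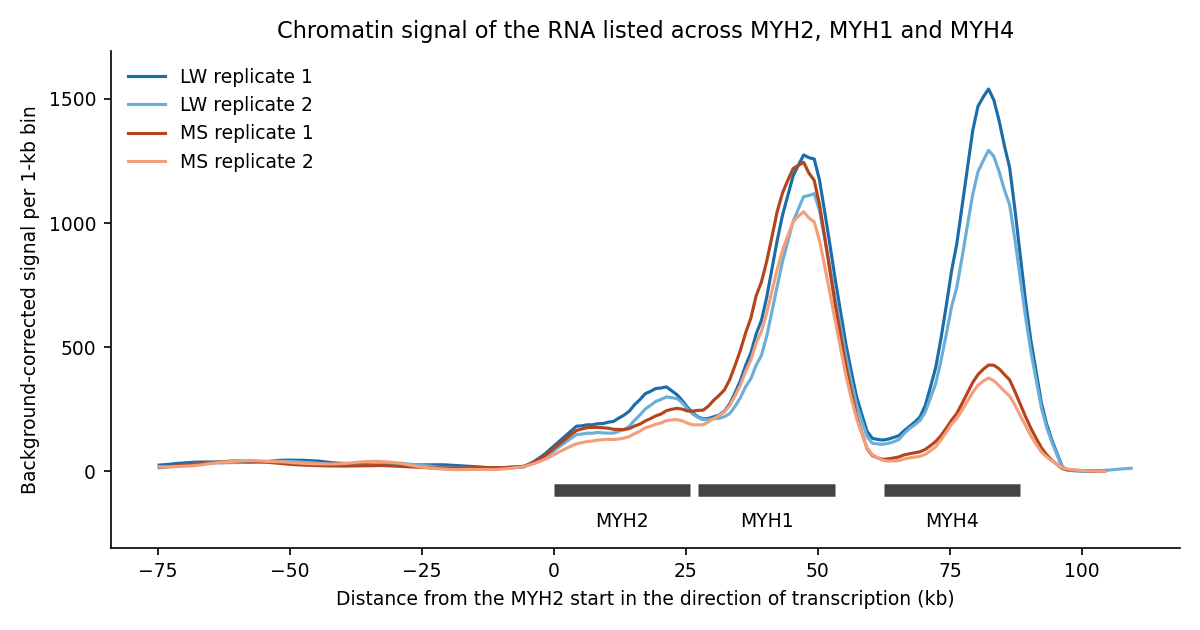
Background-corrected signal of the fast-gene RNA per 1-kb bin (vertical axis) against distance from the MYH2 start in the direction of transcription (kb), with 1 line per library and bars for the genes. The lines run together over MYH1, with highest bins of 1046 to 1274, and part over MYH4, where the LW lines reach 1540 and 1293 and the MS lines 428 and 376.

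**Figure D3:**
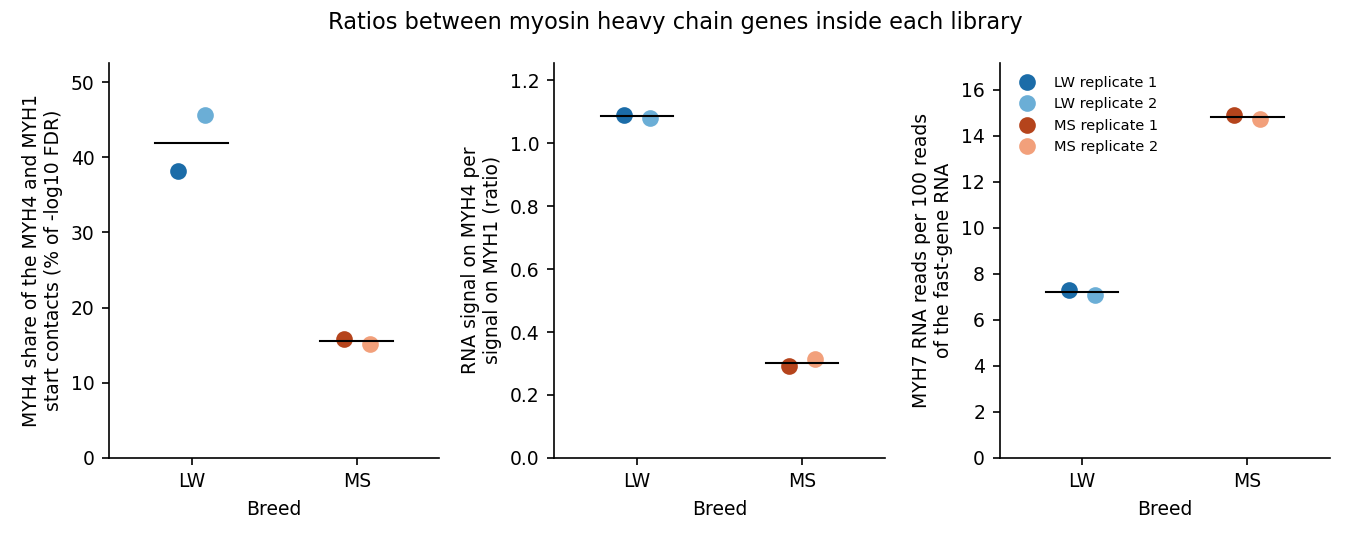
Points are libraries and black lines breed means; the panels show the MYH4 share of the contacts of the MYH4 and MYH1 starts with the segment (%), the fast-gene RNA's signal on MYH4 per signal on MYH1, and reads of the MYH7 RNA per 100 reads of the fast-gene RNA. The breeds do not overlap in any panel, with LW at 38.2% and 45.7% against 15.8% and 15.2% in the first, 1.09 and 1.08 against 0.293 and 0.313 in the second, and 7.30 and 7.10 against 14.9 and 14.7 in the third. The ratios were formed after the values were seen. How many ratios of other genes or RNAs also separate the breeds was not counted.

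The fast-gene RNA left its own locus in both breeds. Between 84.0% and 89.3% of its signal lay within 10 kb of its interval, close to the library medians of 83.1% to 92.7% over all listed RNAs. It was listed on 1208 and 1898 bins in LW against 791 and 896 in MS, more than 87.8% to 91.6% of the RNAs. Between 2.46% and 4.55% of its signal lay on 9 to 13 other chromosomes, on 491 and 917 bins in LW against 351 and 476 in MS. Of all listed RNAs, 12.3% to 13.4% had any bin on another chromosome. These comparisons were not matched for reads, by which the fast-gene RNA ranked 17th to 21st in its lists. In LW replicate 1, MYO18B with 73079 reads had 8585 bins and CMTM4 with 85091 reads had 860, both also on other chromosomes. The fast-gene RNA's signal on bins of other chromosomes was low, with medians of 2.33 to 3.36 per bin. In the segment before MYH2 that held the loop anchors, the RNA was listed on all 50 bins in each library. Its mean signal there was 34.4 and 31.0 per bin in LW against 27.1 and 32.2 in MS, and these overlapped between breeds. This was 2.96% to 4.91% of its signal, over a stretch whose bins had more signal than its typical bin on other chromosomes.

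When all RNAs on bins in or within 5 kb of a gene were summed, the located members had more signal than at least 92.4% of genes with any signal in every library. MYH4 had 23896 and 20362 in LW against 7240 and 6249 in MS. The normalized difference was 1.54 ± 0.96 (log2, SE) and did not pass (limma, adjusted p = 0.641 over 24072 genes). In simulated data this fit called 0 of 200 changed genes even at a log2 size of 6. Not passing it therefore does not show that the breeds are alike. MYH1 had 22804 and 19633 in LW against 23250 and 18867 in MS, and its difference of −0.10 ± 0.93 turned positive without normalization. MYH2 had 7781 and 6677 in LW against 6799 and 5270 in MS, and its difference of 0.09 ± 1.01 turned negative when either LW replicate 1 or MS replicate 2 was left out. MYH7 had 74263 and 63829 in LW against 48680 and 35803 in MS, with a difference of 0.65 ± 0.89. LW was above MS without overlap at MYH4 and MYH7, 2 of 4 members, and this held for 19% of all genes. Over all genes, limma called 0% of 24072 at an adjusted p under 0.05, with 3817 at an unadjusted p under 0.05. By the study's thresholds, a log2 difference above 2 with p under 0.05, 7.7% of genes were higher in LW, and none was a member.

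**Figure D4:**
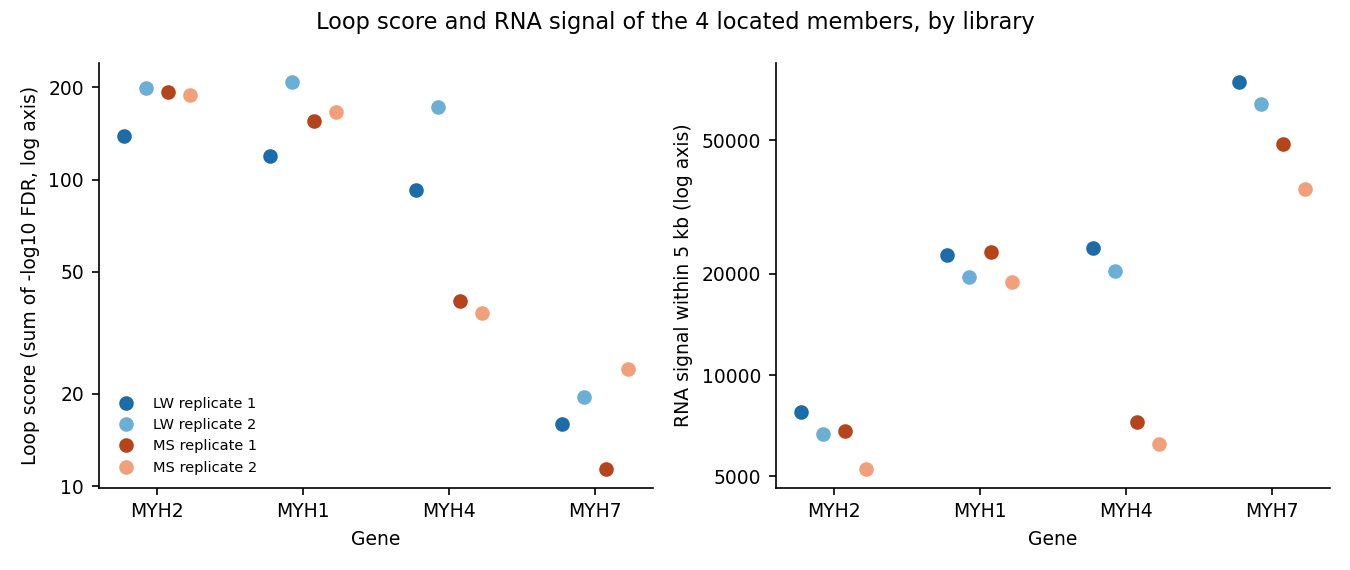
Points are libraries; the left panel shows the loop score (sum of −log10 FDR, log axis) and the right panel the RNA signal on bins in or within 5 kb of the gene (log axis). MYH4 is the gene at which both LW points stand above both MS points in both panels, at 92.2 and 173 against 40.1 and 36.8 and at 23896 and 20362 against 7240 and 6249. LW stood above MS without overlap at 25.1% of all genes in loop score and at 19% in RNA signal.

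Transcripts without a gene name were listed between MYH2 and the far side of LOC396711 in LW and in neither MS list. All were on the plus strand, opposite to the fast genes. In LW replicate 1 there were Tx.1066, at 55339759 to 55348024 with 1194 reads, and Tx.1071, at 55356774 to 55359827 with 720 reads. In LW replicate 2 Tx.1299 had almost the same ends as Tx.1066 (55339758 to 55348033) and 1397 reads, and Tx.1302 those of Tx.1071 (55356727 to 55359831) and 845 reads. Tx.1300 and Tx.1301, with 479 and 736 reads, were listed between them in that library. Tx.1066 and Tx.1299 lay inside the segment that the fast genes contacted, and Tx.1071, Tx.1301 and Tx.1302 lay inside LOC396711. These transcripts had 0 bins on other chromosomes. The smallest number of reads in a list was 441 and 446 in LW against 432 and 455 in MS. Tx.1300 was close to that number, while Tx.1066 and Tx.1299 were well above it. The MS libraries are shown only to lack a listing, not to be at 0. The LW lists held 571 and 681 RNAs, and 310 RNAs entered the read test as listed in all 4 libraries. How many of all RNAs were listed in LW alone was not counted here, so these listings are not shown to be particular to this locus. Signal on LOC396711 was 59377 and 124476 in LW, nearly all from these transcripts, and 304 and 433 in MS. The normalized difference of 7.25 ± 1.02 (log2, SE) did not pass (limma, adjusted p = 0.143). LW stood above MS without overlap at 19% of all genes, and 7.7% were higher in LW by the study's thresholds.

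RNAs of other genes were rare on the members. They made up 0% to 1.23% of the signal in or within 5 kb of MYH4, MYH1, MYH2 or MYH7 in any library, from 0 to 6 RNAs. TTN, the RNA of the giant sarcomere spring titin, was the only one listed on a member in all 4 libraries, on MYH1, with 11.3 and 14.2 in LW against 12.7 and 0.584 in MS. ASPDH, listed from chromosome 6, had the most outside signal on MYH1, with 138 and 67.6 in the LW libraries, and on MYH4, with 27.6 and 21.6, and was not listed on either in MS. That RNA had 91598 and 100862 reads on 4059 and 7335 bins in LW and 31710 and 37590 reads on 262 and 436 bins in MS, so it was listed on fewer bins everywhere in MS. NEB, the RNA of the thin filament ruler nebulin, lay on MYH1 in LW replicate 1 with 38.1. ENSSSCG00000048037, an RNA from chromosome 3 with bins on 19 chromosomes, lay on MYH1, MYH2 and MYH7 in 3 libraries each and on MYH2 had 10.0 in LW replicate 2 and 33.5 and 35.8 in MS. Over the whole genome it had 75846 and 143343 bins in LW against 154002 and 230814 in MS. ENSSSCG00000044834 lay on MYH4 with 17.3 in LW replicate 1 and 0.395 in MS replicate 1. Over the whole genome that RNA had 237150 and 203099 bins in LW against 47717 and 46333 in MS. ENSSSCG00000048856 lay on MYH2 in MS replicate 1 with 18.8. On MYH7, MYO18B had 69.4 in MS replicate 1, U4 had 45.3 in LW replicate 1 and CMTM4 had 29.3 in LW replicate 2, each in that library alone.

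MYH7, the slow gene, moved the other way in reads from the fast-gene RNA. Its RNA had 4957 and 5319 reads in LW against 6402 and 7444 in MS, or 606 and 535 RPM (reads per 1000000 listed reads) in LW against 893 and 793 in MS. The fast-gene RNA had 8296 and 7537 RPM in LW against 5978 and 5384 in MS. With edgeR's quasi-likelihood test, MYH7 reads were lower in LW by a log2 difference of −0.59 ± 0.02 (SE; adjusted p = 8.01e-05). Those of the fast-gene RNA were higher in LW by 0.45 ± 0.01 (adjusted p = 1.22e-05 with edgeR). Both libraries of a breed lay on the same side in each case. Of the 310 RNAs tested, 43.5% were called higher in LW and 42.6% higher in MS, so a call by itself does not set the members apart from other RNAs. Set against the fast-gene RNA of its own library, MYH7 had 7.30 and 7.10 reads per 100 in LW against 14.9 and 14.7 in MS. The breed means of this ratio were 7.20 ± 0.146 and 14.8 ± 0.137 (SD, n = 2 each), 2.06 times higher in MS. In whole muscle, fewer cells of a fibre type and less RNA per cell cannot be told apart.

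The signal of the MYH7 RNA went the other way from its reads, being higher in LW. The sum over the MYH7 gene was 64686 and 54504 in LW against 41401 and 29271 in MS, and the highest bin had 3792 and 3034 in LW against 2255 and 1503 in MS. How the signal was scaled between RNAs and libraries was not determined here. It did not follow reads across the 2 RNAs: in LW replicate 1 the MYH7 RNA had 4957 reads and a signal of 97368 over all its bins, and the fast-gene RNA had 67876 reads and a signal of 57558. The RNA stayed at its locus, with 99.5% to 99.9% of its signal within 10 kb of its interval and 0 bins on other chromosomes in any library. It was listed on 87 to 90 bins, near the medians of 69 to 92 over all RNAs. Downstream, over LOC100736765, the RNA carried 29.7% and 29.8% of the signal it had on MYH7 in LW, and 12.8% and 21.5% in MS. Mean signal per bin there was 685 and 580 in LW against 189 and 225 in MS, with no overlap. Summed over all RNAs within 5 kb, the difference at LOC100736765 was 1.12 ± 0.91 (log2, SE) and did not pass (limma, adjusted p = 0.641). LW stood above MS without overlap at 19% of all genes. The listed interval covers both genes, and transcripts of either cannot be told apart in these values. The highest bin lay 11.7 to 12.7 kb past the MYH7 start in LW and 8.66 to 9.66 kb past it in MS.

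**Figure D5:**
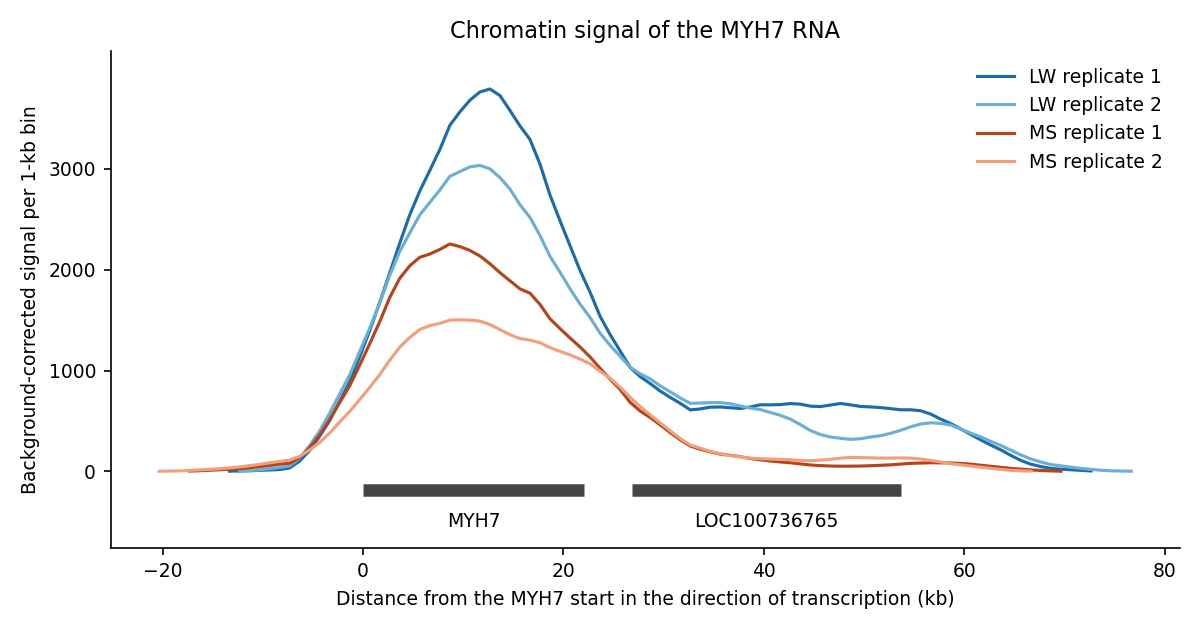
Background-corrected signal of the MYH7 RNA per 1-kb bin (vertical axis) against distance from the MYH7 start in the direction of transcription (kb), with 1 line per library and bars for MYH7 and LOC100736765. Both LW lines lie above both MS lines over most of MYH7, with highest bins of 3792 and 3034 against 2255 and 1503, and over LOC100736765.

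MYH7 had few loops beside the fast genes. There were 3 in each LW library and 2 and 1 in the MS libraries. The one called in all 4 joined the bin before its start, 75645001 to 75650000, with the bin at 75640001, with strengths of 7.82 and 12.7 in LW against 9.06 and 24.2 in MS. The breeds overlapped, and MS replicate 2 was highest. A loop from the same bin into LOC100736765, 35 kb away, was called with 3.26 in LW replicate 1 and 2.37 in MS replicate 1, and 1 bin nearer with 4.56 in LW replicate 2. Loops to 75720001 (4.93, LW replicate 1) and 75755001 (2.24, LW replicate 2) were each called in 1 library. In loop score MYH7 stood above 46.9% to 68.4% of genes with a loop, and MYH4, MYH1 and MYH2 above 77.8% to 98.3%.

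The RNAs whose reads most resembled the members over the 4 libraries were found from the root mean square difference of centred log2 RPM, among 309 other RNAs. The fast-gene RNA was closest to CMSS1 at 0.0035, CFL2 at 0.012 and ENSSSCG00000048702 at 0.012, against a median of 0.275. CFL2 encodes the muscle isoform of the actin-severing protein cofilin and had 1444 and 1589 reads in LW against 896 and 1078 in MS. MYH7 was closest to ATP2A1 at 0.015, SLC25A4 at 0.025 and TXNIP at 0.027, against a median of 0.331. ATP2A1 encodes the calcium pump of fast fibres and had 17748 and 19200 reads in LW against 22680 and 27137 in MS. SLC25A4 encodes the ADP/ATP carrier of muscle mitochondria and TXNIP an inhibitor of thioredoxin. A pattern over 4 libraries that fall in 2 groups is mostly the breed difference, and many RNAs share it.

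Among 16 genes of the thick filament and its assembly, 15 could be tested for loops and 16 for RNA signal, and none passed after adjustment with limma. For RNA reads 5 could be tested, and 3 were called higher in LW and 2 higher in MS with edgeR. Over all 310 RNAs 43.5% and 42.6% were called in these directions, so the counts are no result about the list. MYL1, an essential light chain of fast myosin, rose in LW by 0.44 (log2; 37269 and 41297 reads in LW, 23576 and 28485 in MS). MYBPC1, the slow isoform of myosin binding protein C, was higher in LW by 0.30, and MYBPC2, its fast isoform, higher in MS with a difference of −0.33. MYOM1, which crosslinks thick filaments at the M band, was higher in LW by 0.61. TRIM63, a ubiquitin ligase that targets myosin, had a difference of −0.60, higher in MS. The median difference in reads over the 5 was 0.30, against −0.02 over all RNAs tested. Of 12 regulators of fibre type, none passed for loops or RNA signal. In reads TBX15 was called higher in LW by 0.08 and TEAD1 higher in MS, with a difference of −0.13, the 2 that could be tested. TBX15 was not listed under its name in any library. Its reads are those of RNAs listed under other names inside its interval, whose strand was not checked. MYH9, MYH10, MYH11 and MYH14, which serve non-muscle and smooth muscle cells, were listed as RNAs in 0 libraries. All 4 had a loop in at least 1 library, and 3 had one in every library.

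The libraries carried the markers of skeletal muscle. RNAs named for 5 or 6 of 8 muscle markers were listed per library, at 137714 and 125062 RPM in LW against 115900 and 105576 in MS, and all 8 had a loop in every library. Their reads did not move together between breeds: of 6 that could be tested with edgeR, NEB (0.70, log2, LW minus MS) and TTN (0.18) were called higher in LW and CKM (−0.69), TNNI2 (−0.24) and TNNT3 (−0.05) higher in MS. CKM is the creatine kinase of muscle, and TNNI2 and TNNT3 are troponins of fast fibres, so these fast-fibre troponins were called in the direction opposite to the fast-gene RNA. Without TMM, TTN, TNNI2 and TNNT3, and the regulators TBX15 and TEAD1, kept their signs and were no longer called. Leaving out LW replicate 1 also ended the calls of TNNT3 (−0.026, log2, LW minus MS), TBX15 (0.10) and TEAD1 (−0.11), and leaving out MS replicate 1 that of TBX15 (0.034). ACTA1 and RYR1 were not listed under their names. None of 4 heart markers, 4 adipocyte markers, 4 endothelial markers or 4 macrophage markers was listed in any library. Loops did not separate the cell types in this way. All 4 endothelial markers, 2 of 4 macrophage markers and 4 of 5 fibroblast markers also had a loop in every library. For heart and adipocyte markers this number was 0. Among 5 fibroblast markers, 2 or 3 were listed per library, at 1262 and 1079 RPM in LW against 923 and 1495 in MS, without PDGFRA and DCN. COL1A1 and COL1A2 were called higher in MS with edgeR, by log2 differences of −0.50 and −0.45 (LW minus MS). They moved in the direction of MYH7 in reads, and their part in the MYH7 difference was not tested. The 5 fibroblast markers had median differences of 0.90 in loop score and 0.94 in RNA signal, toward LW, and none passed with limma.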

How the data were processed

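The loop lists and RNA lists of 8 libraries were read as deposited, and each sample took its breed and replicate number from its label. For BL-HiChIP the authors called loops per library with FitHiChIP between H3K27ac peaks and all 5-kb bins of Sscrofa11.1. The deposited value of a loop is a p-value adjusted as an FDR, ending under 0.01, and was used as −log10. For GRID-seq the authors mapped RNA and DNA ends with Bowtie2 (2.2.5 in the submitters' processing notes), kept RNAs enriched on chromatin and corrected for background. The deposited lists give each RNA a whole number, taken here as its count of reads. For every 1-kb bin the authors also deposited a signal of 0.02 or more. The lists have no headers, so these units were judged from the values. Contact counts and the RNA ends deposited apart were not used here. Replicate lists were not copies of each other: chi-square of the read counts per degree of freedom was 277 in LW and 58.9 in MS.

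Gene positions came from the RefSeq table. Loop score and RNA signal were quantile-normalized, compared on the log2(value + 1) scale with limma 3.58.1 in R 4.3.3, and adjusted by Benjamini-Hochberg over all genes; the pseudocount shrinks the differences of genes with low values. Reads of RNAs listed in all 4 libraries were tested with edgeR 4.0.16 (TMM, quasi-likelihood). A listed RNA without a gene symbol that lay inside the interval of only 1 gene was added to that gene's reads, on either strand. All fits were checked on simulated data with 200 changed features. The loop fit called 176 of 200 at a log2 size of 6 and 0 at a size of 3, the signal fit 0 at either size, and the read fit 199 at a log2 size of 1. Named genes were all members, RNAs with most signal on their bins (up to 5 each) or listed there in all 4 libraries, genes at far anchors of loops in at least 3 libraries, called genes of the pathway lists, and the 3 RNAs most like each listed member. Values of 1 RNA that this rule names are not reported here. The members and lists were chosen with earlier results of these data known. Intervals are not given because a loop's FDR and a corrected signal carry no count. Promoter motifs and sequences were not analysed here. Python 3.11.15 and matplotlib 3.10.9 did the rest.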

Additional observations from a re-analysis of the deposited data

How the results depend on the processing

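The direction at MYH4 held under every alternative tried, from 0.89 to 1.81 in 13 for the loop score and from 1.11 to 3.16 in 11 for RNA signal (log2, LW minus MS), and neither passed an adjusted p under 0.05 in any, with adjusted p from 0.363 to 1 and from 0.310 to 0.677. The 3.16 came from leaving out RNAs of the gene itself, which left 57.4 and 29.0 in LW against 18.6 and 0 in MS. That setting therefore says little about MYH4 signal, and 1.95 was the highest of the others. MYH1 and MYH2 kept their loop directions. The MYH7 loop score turned to 0.078 without normalization, 0.026 without LW replicate 1 and 0.30 without MS replicate 2 (−0.94 to 0.30 with each library left out). In RNA signal, MYH1 turned to 0.015 without normalization, 0.23 without LW replicate 2, 0.24 without MS replicate 1 and 1.47 without RNAs of the gene itself (−0.46 to 0.24 with each library left out). MYH2 turned to −0.39 without LW replicate 1, −0.43 without MS replicate 2 and −1.51 without RNAs of the gene itself (−0.43 to 0.59 with each library left out), and MYH7 to −0.16 in the last setting. The cause was not tested. Calls over all genes were 0 for loops and signal in every fit except 1 loop call with DESeq2 and 1 with an intensity trend in limma, the latter chosen after seeing the data. Leaving out each library gave 0 to 0 for both. The RNA read calls fell from 267 to 172 without TMM and ran from 254 to 298 with a library left out, and the fast-gene RNA and MYH7 were called in all 10 alternatives.

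A replicate block gave 0 calls for loops, 0 for signal and 272 for reads and changed no call of a member. The labels share only the numbers 1 and 2. Deviations of equal numbers correlated at 0.548 for loop scores, 0.0232 for RNA signal and 0.755 for reads over 2 pairs.

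The within-library ratios were formed, and their alternatives chosen, after seeing the data. The MYH4 share of start contacts was 26.5 percentage points higher in LW, 22.7 to 30.2 with a library left out and 0 when loops were counted without strength. MYH4 signal per MYH1 signal was 0.78 higher in LW, 0.73 with bins within 5 kb, 0.83 for the highest bins, 0.82 for the last 10 kb of the genes and 0.77 to 0.79 with a library left out. MYH7 reads per 100 fast-gene reads differed by −7.63 (LW minus MS), −7.74 to −7.53 with a library left out. Loops at members called in both libraries of a breed numbered 6 in LW and 8 in MS, against 41 and 33 in either. Over all loops, 26.6% of LW replicate 1 and 25.8% of MS replicate 1 had the same bins in replicate 2. Low agreement between replicates is therefore no result about the members. The fast-gene RNA had 7.38% of its bins within 10 kb in LW and 13.0% in MS, and 86.7% and 87.2% of its signal. An RNA below the smallest listed number of reads, or a loop above the FDR limit, cannot be told from 0.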
